A study of Mus musculus with 9 samples.

Results

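The 10 genes described here encode soluble calcium-binding proteins of neurons. They were chosen by name, with earlier results of these data known, from the 22192 genes of a brain RNA sequencing table. All 10 were found. Pvalb, Calb1, Calb2 and Scgn encode the buffers parvalbumin, calbindin, calretinin and secretagogin. Hpca, Hpcal1, Hpcal4, Ncald, Vsnl1 and Ncs1 encode neuronal calcium sensors. The study asked about ageing of the mouse brain and a ginseng root polysaccharide named GRP-E1F2. All mice were male KM mice. The young group (5 months) and the aged control group (18 months) were given physiological saline by mouth, and a second 18-month group was gavaged with GRP-E1F2 at 200 mg/kg. Dosing was every 2 days over 4 weeks in all 3 groups.

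Each group has 3 libraries that the labels call parallel samples. Nothing says that they came from separate mice, so each p-value reflects the scatter of these libraries alone, which may be technical. Values are TPM (transcript abundance per length, scaled to the same total in each library, with no record of depth). The depth is therefore unknown and no counting error can be given. Tissue and source are labelled brain, while the extraction text in the labels speaks of retinas. Pan-neuronal genes summed to between 5258 and 6415 TPM in every library. The 17 retinal genes summed to 22.4 to 27.7 TPM in young, 28.8 to 29.0 in aged saline and 45.0 to 48.2 in GRP-E1F2 libraries. Of the 5 tested as described below, 1 rose with age, 4 rose under GRP-E1F2 and 0 fell in either comparison. Over all genes 5.48% rose with age and 7.47% under GRP-E1F2. Sag, among the 4, averaged 1.44 TPM over the 9 libraries, close to the 1 TPM needed for testing. It reached that level mainly through the GRP-E1F2 libraries, so its rise adds little to the count. Grm6, the receptor of retinal bipolar cells, was listed at 0 in all 9 libraries.

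Some libraries lay between the other pair of their group. Among genes that differed at least 1.3-fold (on TPM + 1) between the other pair, young library 3 lay between them for 92.8%, aged saline library 2 for 93.5% and GRP-E1F2 library 3 for 94.3%. For the other 6 libraries this share was 15.9% to 29.8%. The members followed the same pattern, with 10 of 10, 8 of 10 and 9 of 10 in between. For several members, calls are therefore also given without those 3 libraries, which leaves 2 per group. Genes of the other lists are given with all 9 libraries only. With 2 per group almost no gene of the whole table stayed called for age, as stated in the last section.

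Calcium entering a neuron is bound within moments by buffer proteins, which shape how far and how long the signal spreads. Parvalbumin is a slow buffer typical of fast-spiking interneurons and Purkinje cells, calbindin is a fast buffer abundant in Purkinje cells, and calretinin marks cerebellar granule cells, olfactory bulb neurons and a class of cortical interneurons. Secretagogin is known from olfactory bulb interneurons and endocrine cells. Neuronal calcium sensors carry the same EF-hand calcium-binding loops, but most have a fatty acyl group that is exposed on calcium binding and moves the protein to membranes. Hippocalcin is best known from hippocampal and cortical pyramidal cells, and Hpcal1 protein from Purkinje cells.

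Hpca, Hpcal1 and Ncald are close relatives, and the results turn on how differently they moved. The same stretch of each is therefore shown, coding bases 206 to 295, which holds the codons of an EF-hand loop. Capitals mark bases that differ from Hpca, 9 in Hpcal1 and 23 in Ncald. The sequences are the coding strand of the GRCm38 reference with GENCODE gene models. Hpca lies at chr4:129118447-129118536 on the minus strand, Hpcal1 at chr12:17786376-17786465 on the plus strand and Ncald at chr15:37397140-37397229 on the minus strand.
Hpca: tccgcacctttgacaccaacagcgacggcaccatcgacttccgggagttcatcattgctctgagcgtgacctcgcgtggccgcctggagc
Hpcal1: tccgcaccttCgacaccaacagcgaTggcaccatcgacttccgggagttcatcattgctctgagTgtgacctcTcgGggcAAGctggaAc
Ncald: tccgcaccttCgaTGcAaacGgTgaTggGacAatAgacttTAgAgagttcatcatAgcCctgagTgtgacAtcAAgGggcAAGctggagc
Over their whole coding sequences Hpca and Hpcal1 were 86.0% identical, Hpcal1 and Ncald 80.1%, Hpca and Ncald 78.6%, and Hpcal4 and Vsnl1 82.4%. No stretch of 50 bases was shared between the annotated transcripts of any pair of members. The longest shared run in the coding sequence of Hpca and Hpcal1 was 38 bases. The sources used here do not say how reads matching more than 1 gene were counted, so the values of this family are uncertain to that extent. Exons of Tmem54 overlap 57 exonic bases of Hpca on the opposite strand, and Tmem54 reached at most 0.198 TPM. Exons of 2 other annotated genes overlap 4.04% and 3.33% of the exonic bases of Ncald, and those genes were not analysed here.

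Promoters were matched in RefSeq (GRCm38.p6, 250 bases before to 50 after a gene's start) for 7 of the 10 genes, with 11 promoters in all. The entry of the most upstream start is shown for Hpca and Hpcal4, the 2 members that rose with age, and for Hpcal1, their relative that fell. Capitals mark matches on either strand to the GC box GGGCGG and to the core element AGGTCA, which is read by nuclear receptors of the ROR family. Hpca lies at chr4:129121698-129121997 on the minus strand, Hpcal4 at chr4:123183254-123183553 on the plus strand and Hpcal1 at chr12:17690559-17690858 on the plus strand.
Hpca: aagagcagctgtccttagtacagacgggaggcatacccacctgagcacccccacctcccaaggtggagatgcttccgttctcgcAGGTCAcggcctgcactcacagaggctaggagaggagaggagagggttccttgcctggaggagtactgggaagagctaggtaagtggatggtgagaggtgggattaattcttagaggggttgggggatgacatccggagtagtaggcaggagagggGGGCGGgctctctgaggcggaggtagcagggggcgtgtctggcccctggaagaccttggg
Hpcal4: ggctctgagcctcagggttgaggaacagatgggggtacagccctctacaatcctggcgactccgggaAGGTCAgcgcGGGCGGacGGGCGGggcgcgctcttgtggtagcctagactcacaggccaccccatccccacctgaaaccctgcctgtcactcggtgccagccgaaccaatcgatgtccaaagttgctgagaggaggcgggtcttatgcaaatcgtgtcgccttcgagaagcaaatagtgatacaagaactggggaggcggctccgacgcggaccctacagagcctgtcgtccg
Hpcal1: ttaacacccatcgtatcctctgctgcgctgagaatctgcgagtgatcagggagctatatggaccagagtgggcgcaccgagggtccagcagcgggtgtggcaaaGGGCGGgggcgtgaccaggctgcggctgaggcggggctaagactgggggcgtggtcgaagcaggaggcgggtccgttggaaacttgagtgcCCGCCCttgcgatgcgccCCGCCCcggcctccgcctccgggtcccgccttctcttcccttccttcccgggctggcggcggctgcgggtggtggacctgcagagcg
These Hpca and Hpcal4 promoters were the 2 of 11 with AGGTCA, which 16.3% of the 32851 promoters in the table hold. Hpca has 3 listed promoters, and only the one shown holds AGGTCA. Calb1, Calb2 and Ncald had no promoter entry. A link of this element to the rises was not tested. GGGCGG was found in 7 of 11 member promoters and in 35.7% of all. TATAAA, the TATA box, and TGACGTCA, the cyclic AMP response element, were found in none of the 11, and in 13.6% and 1.79% of all promoters. These are letter matches only.

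In young brain the buffers dominated this set of genes. In aged saline libraries the sensors were above the buffers, and in GRP-E1F2 libraries the sensors made up most of the set. The summed level of the 4 buffers was 3907 ± 533 TPM (SD, n = 3) in young, 2341 ± 42.5 in aged saline and 552 ± 11.4 in GRP-E1F2 libraries. The summed level of the 6 sensors was 1913 ± 243, 2649 ± 214 and 2963 ± 188 TPM. Buffers thus held 60.9% to 72.6% of the members' TPM in young, 44.9% to 48.6% in aged saline and 14.7% to 16.6% in GRP-E1F2 libraries, and these ranges did not overlap. Parvalbumin alone held 50.8% to 60.1%, 37.8% to 39.6% and 9.25% to 10.8%. Among the sensors, the mean of Hpca was 583 TPM in young and 1255 in aged saline libraries. Hpcal1 was lower in aged saline than in young libraries, and Vsnl1 and Ncs1 had similar means. Between young and aged saline libraries the sums thus differed mainly through Pvalb and Hpca.

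**Figure D1:**
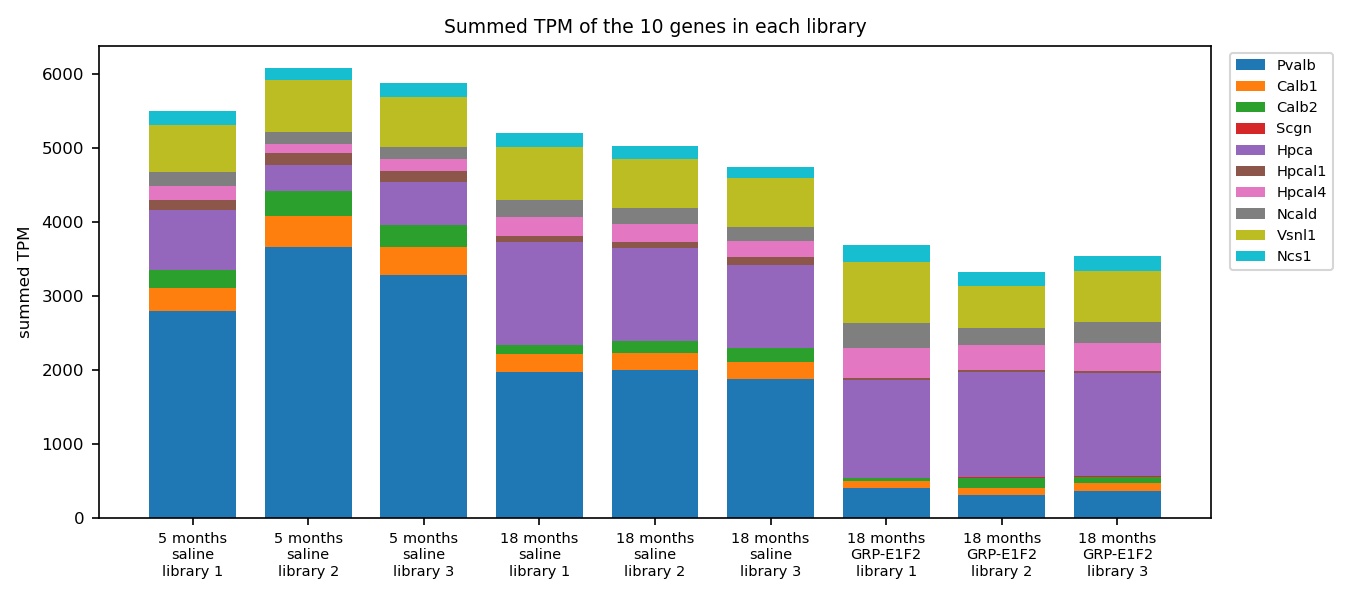
Summed TPM of the 10 genes in each of the 9 libraries, as stacked bars from 0 with the 4 buffers at the bottom and the 6 sensors above. Pvalb shrinks from 50.8% or more of the bar in the young libraries to 10.8% or less in the GRP-E1F2 libraries.

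The order of levels changed with it. In young brain Pvalb was highest, followed by Vsnl1, Hpca, Calb1, Calb2, Ncs1, Ncald, Hpcal4, Hpcal1 and Scgn. Only the steps from Pvalb to Vsnl1, from Calb2 to Ncs1 and from Hpcal1 to Scgn separated neighbours whose libraries did not overlap. In aged saline brain Pvalb stayed first, and Hpca passed Vsnl1. The aged saline order went on with Hpcal4, Calb1, Ncald, Ncs1, Calb2, Hpcal1 and Scgn, with overlap between Hpcal4 and Calb1 and between Ncs1 and Calb2. In GRP-E1F2 libraries Hpca was first, followed by Vsnl1, Hpcal4, Pvalb, Ncald, Ncs1, Calb1, Calb2, Hpcal1 and Scgn. There Pvalb overlapped with its neighbours Hpcal4 and Ncald, and Calb1 with Calb2.

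**Figure D2:**
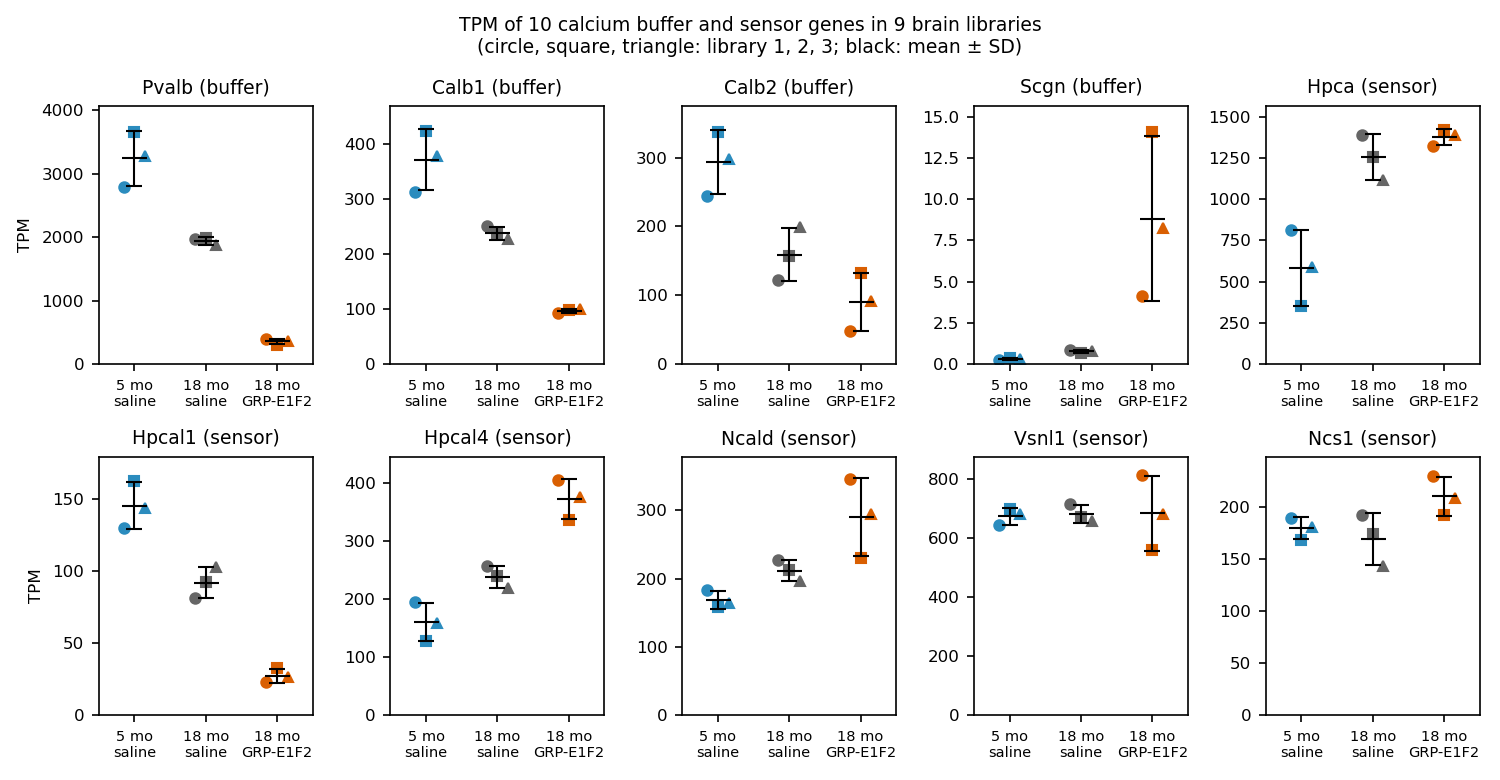
TPM of each member in every library (linear axis from 0), 1 panel per gene, with symbols for libraries 1 to 3 and black bars for the mean and SD of each group. Pvalb, Calb1 and Hpcal1 step down from young to aged saline to GRP-E1F2 without overlap, Hpcal4 and Ncald step up without overlap, and Vsnl1 stays between 558 and 814 TPM.

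Of the 10 members, 5 passed the test for age, against 16.7% of the 13301 genes tested. The members were chosen with earlier results of these data known, so their counts cannot show an excess over all genes. A gene is said to have risen or fallen where limma's adjusted p was under 0.05. Hpca and Hpcal4 rose and Pvalb, Calb1 and Hpcal1 fell, while 5.48% of all genes rose and 11.2% fell. The groups did not overlap for 8 members, against 41.5% of all genes. For GRP-E1F2 against saline in aged brain, 6 members passed, against 20.8% of all genes. Scgn, Hpcal4 and Ncald rose and Pvalb, Calb1 and Hpcal1 fell, while 7.47% of all genes rose and 13.4% fell. The groups did not overlap for 6 members, against 36.3% of all genes. Both comparisons use the same aged saline libraries, so they are not independent of each other. Scgn passed the expression filter only through the GRP-E1F2 libraries, so it had to differ and its call adds nothing to the count.

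The balance of higher and lower calls over all genes depended on scaling. With TPM as deposited, 729 genes rose and 1488 fell with age, with median-of-ratios scaling 925 and 1025, with quantile normalisation 966 and 1102, and with scaling to pan-neuronal genes 757 and 915. For GRP-E1F2 the numbers were 994 higher and 1777 lower as deposited, 1302 and 1613 with median-of-ratios scaling, 1466 and 1470 with quantile normalisation, and 666 and 1857 with scaling to pan-neuronal genes. Under median-of-ratios, quantile and pan-neuronal scaling, no member that was called changed direction, and quantile normalisation ended the call of Ncald under GRP-E1F2 (adjusted p = 0.0536 in limma). At an unadjusted p under 0.05, 7 members passed for age against 34.3% of all genes, and 8 for GRP-E1F2 against 35.5%.

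**Figure D3:**
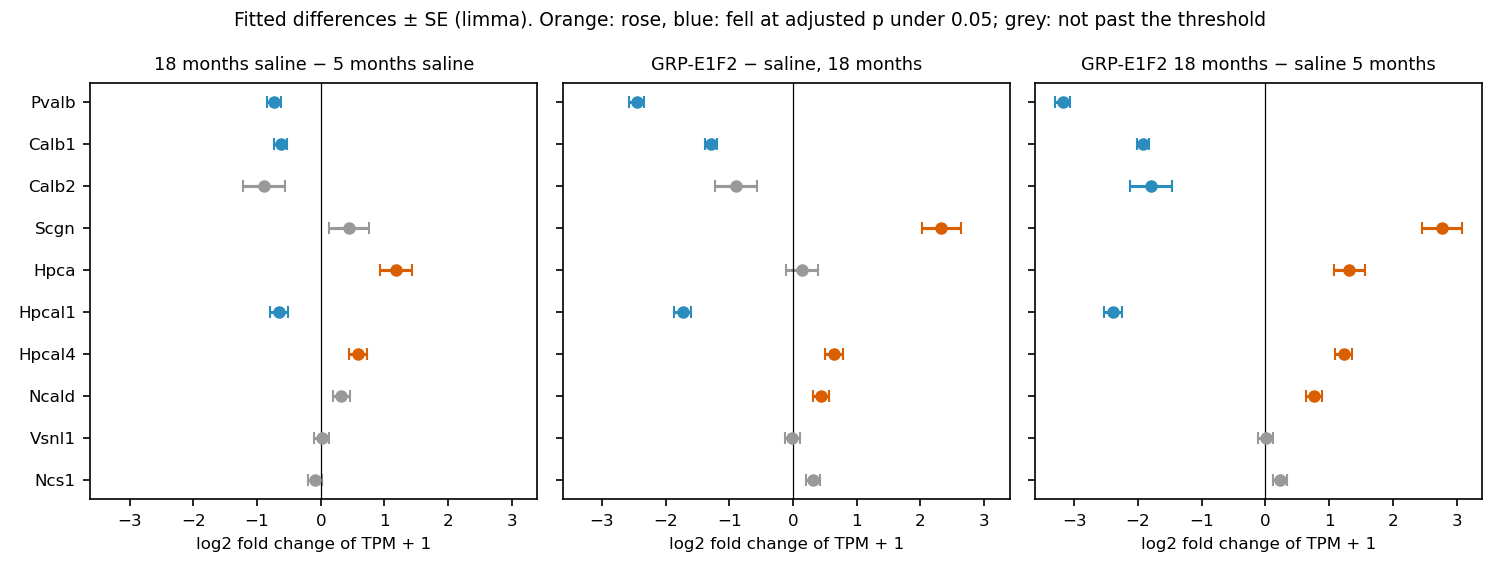
Log2 fold change of TPM + 1 for each member in the 3 comparisons, with standard errors from limma, orange for rises and blue for falls at an adjusted p under 0.05, and grey otherwise. Pvalb, Calb1 and Hpcal1 are blue in all 3 panels, Hpcal4 is orange in all 3, and Vsnl1 lies on 0 in each.

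Parvalbumin (Pvalb, chromosome 15, 78191112 to 78206400, GRCm38) fell with age and fell much further in the GRP-E1F2 libraries. Its level was 2794.84, 3655.72 and 3276.98 TPM in the young libraries, 1964.23, 1992.53 and 1873.78 in aged saline, and 396.32, 306.96 and 364.76 in GRP-E1F2. Every young library was above every aged saline library, and every aged saline library above every GRP-E1F2 library. The mean was 1.67-fold lower in aged saline than in young brain (log2 difference -0.73, SE 0.114, limma adjusted p = 0.00731). It was 5.46-fold lower in GRP-E1F2 than in aged saline libraries (log2 difference -2.45, limma adjusted p = 2.48e-06). With 2 libraries per group the age call was lost (adjusted p = 0.384 in limma) at the same size of change, -0.74, and the GRP-E1F2 call held (adjusted p = 0.00226).

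Calbindin (Calb1, chromosome 4, 15881264 to 15906709) moved in the same steps. Its level was 312.75, 422.03 and 377.84 TPM in young, 250.32, 235.35 and 226.90 in aged saline, and 92.74, 97.86 and 99.48 in GRP-E1F2 libraries. The 3 groups were fully separated, and the GRP-E1F2 libraries lay close together. It fell by 0.63 with age (log2, SE 0.0989, limma adjusted p = 0.00734) and by 1.29 under GRP-E1F2 (adjusted p = 4.67e-05). Without the in-between libraries the age fall was no longer called (adjusted p = 0.384 in limma) and the GRP-E1F2 fall was (adjusted p = 0.0123). The ratio of Pvalb to Calb1 TPM was 8.66 to 8.94 in young, 7.85 to 8.47 in aged saline and 3.14 to 4.27 in GRP-E1F2 libraries, so parvalbumin transcript was lowered by more than calbindin transcript.

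Calretinin (Calb2, chromosome 8, 110142526 to 110168212) was lower in aged brain but more scattered. Its level was 244.72, 337.26 and 298.10 TPM in young, 121.77, 156.54 and 198.97 in aged saline, and 47.65, 132.32 and 91.14 in GRP-E1F2 libraries. All young libraries were above all aged ones, while aged saline and GRP-E1F2 libraries overlapped. Neither the age difference of -0.89 (log2, limma adjusted p = 0.0885) nor the GRP-E1F2 difference of -0.90 (adjusted p = 0.0831) passed the test. The difference between GRP-E1F2 and young libraries did (-1.79, adjusted p = 0.00209 in limma).

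Secretagogin (Scgn, chromosome 13, 23953456 to 23991327) was near the bottom of the range outside the GRP-E1F2 group. Its level was 0.24, 0.39 and 0.31 TPM in young, 0.88, 0.69 and 0.79 in aged saline, and 4.12, 14.11 and 8.27 in GRP-E1F2 libraries. The GRP-E1F2 libraries were all above the others and spread widely among themselves, with library 2 highest and library 1 lowest. The age difference did not pass (adjusted p = 0.346 in limma). The mean ratio of GRP-E1F2 to aged saline was 11.3, and the log2 difference of TPM + 1, which understates the change of a low gene, was 2.33 (SE 0.311, limma adjusted p = 0.00115). With 2 libraries per group it was 2.26 and no longer passed (adjusted p = 0.0748). Because Scgn passed the expression filter only through the GRP-E1F2 libraries, it had to differ, and these p-values lend its rise no support.

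Cerebellar markers were lower where Pvalb, Calb1 and Calb2 were lower, but Scgn was higher there. In bulk tissue, fewer cells of a type, less RNA per cell and a different mix of brain regions cannot be told apart. The 10 Purkinje cell genes summed to 3537 to 5116 TPM in young, 2069 to 2904 in aged saline and 575 to 650 in GRP-E1F2 libraries. With age 8 of them fell and 1 rose, with GRP-E1F2 9 fell, and the list's median log2 differences were -0.75 and -1.77, against -0.05 and -0.02 over all genes. Pcp2, a Purkinje cell protein and 1 of the 2 most abundant of the list, was at 1590 ± 319, 807 ± 163 and 5.99 ± 2.97 TPM (SD, n = 3). Its age difference did not pass (limma adjusted p = 0.0520), and its fall under GRP-E1F2 was the largest of the list (log2 difference -6.92). The 10 cerebellar granule cell genes summed to 1456 to 2043, 1013 to 1065 and 75.2 to 82.4 TPM, with 9 falling with age and all 10 falling under GRP-E1F2. Cbln3, a synaptic organiser specific to granule cells, was at 435 ± 73.2, 276 ± 2.13 and 0.190 ± 0.132 TPM. Pcp2 and Cbln3 were thus near 0 in the GRP-E1F2 libraries. Gng13, a G protein subunit and the most abundant gene of the Purkinje list, was still at 421 ± 37.4 TPM there. It made up most of the 575 to 650 TPM that the list summed to in those libraries. Of the others, Car8 and Ppp1r17 had log2 differences of -5.12 and -5.23 under GRP-E1F2, and Itpka did not fall (0.08). Neither the part of these cells nor that of the regions sampled was tested for Pvalb, Calb1, Hpcal1 or Calb2.

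Parvalbumin did not follow Pcp2 to the end. The ratio of Pvalb to Pcp2 TPM was 1.91 to 2.19 in young and 1.98 to 3.13 in aged saline, but 33.8 to 125 in GRP-E1F2 libraries. The 356 ± 45.3 TPM of Pvalb left there stood beside 5459.95 to 5487.12 TPM summed over 14 interneuron genes, which were at 2462 to 3575 in young and 4188 to 4448 in aged saline. Of those 14, which cover fast-spiking and other interneurons, 2 rose and 2 fell with age, and 2 rose and 1 fell under GRP-E1F2. Cck and Sst, the most abundant, were at 2053 ± 592 and 1683 ± 197 TPM in GRP-E1F2 libraries and passed in neither comparison. Kcnc1, a potassium channel gene, was the 1 that fell under GRP-E1F2 (log2 difference -1.28, limma adjusted p = 1.95e-05). It also fell with age (-0.42, adjusted p = 0.0164). Transcripts of hindbrain and spinal cord neurons were at 46.9 to 64.4 TPM over 10 genes in young, 1.87 to 13.9 in aged saline and 0.332 to 0.813 in GRP-E1F2 libraries. Slc6a5, the glycine transporter of inhibitory hindbrain neurons, was listed at 0 in all 3 GRP-E1F2 libraries. The part of these lists in the change of Pvalb was not tested.

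**Figure D4:**
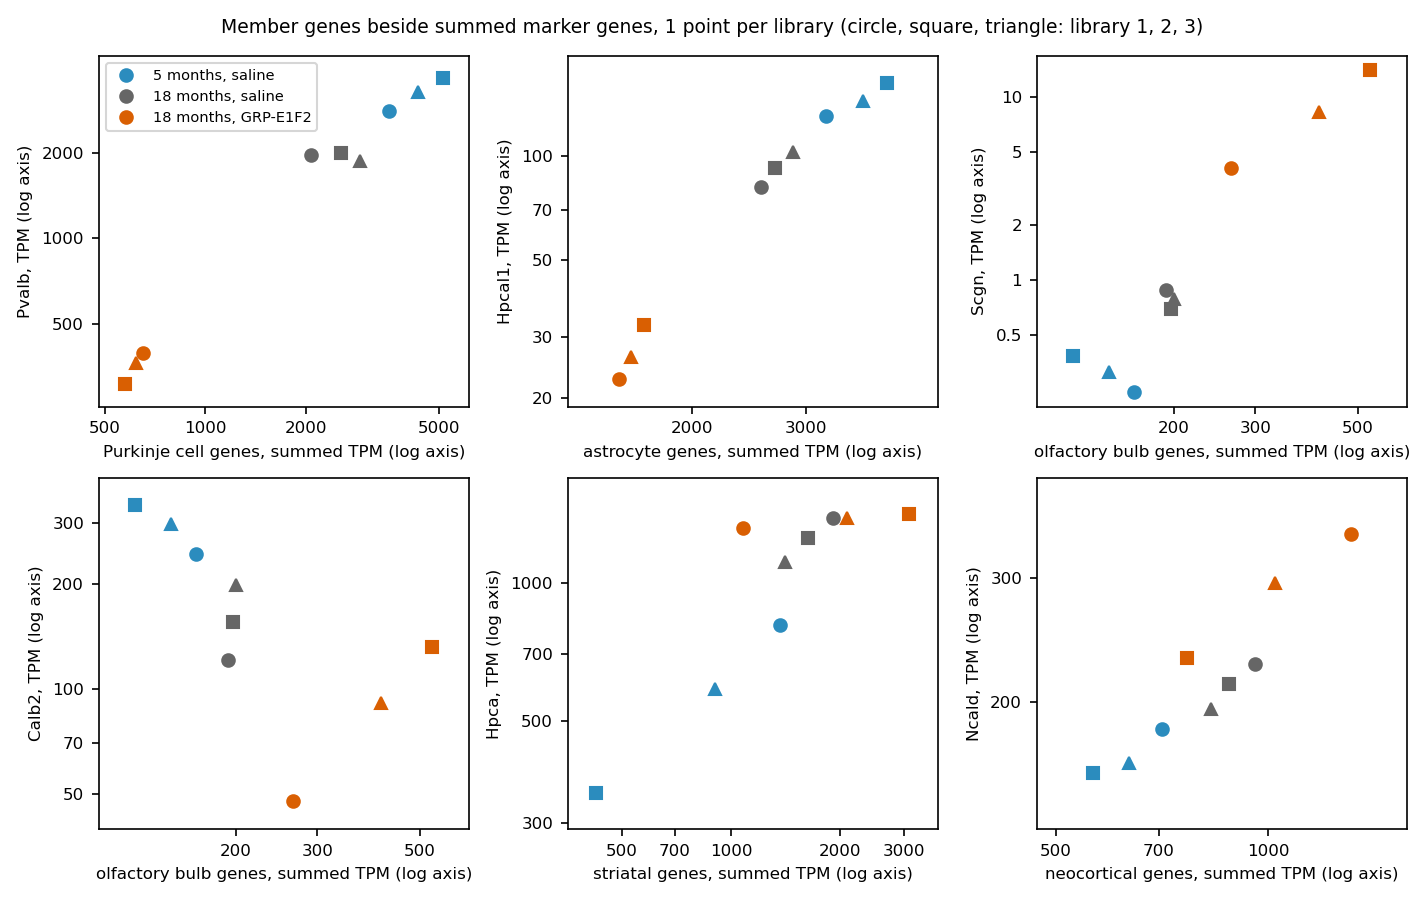
TPM of 6 members against the summed TPM of a marker list, 1 point per library, both axes logarithmic, with colour for the group and shape for the library number. The pairs were chosen after their values were seen. Pvalb and Hpcal1 are low where the Purkinje cell and astrocyte sums are low, Scgn is high where the olfactory bulb sum is high, and Hpca is lowest in young library 2, where the striatal sum is lowest.

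Secretagogin and calretinin varied within the GRP-E1F2 group along with olfactory bulb markers. The 12 olfactory bulb genes summed to 266, 532 and 412 TPM in GRP-E1F2 libraries 1 to 3, and Scgn (4.12, 14.11, 8.27) and Calb2 (47.65, 132.32, 91.14) had the same order. In the other groups the sums were lower. They were 164, 121 and 145 TPM in young libraries 1 to 3, the reverse of the order of both genes. In aged saline libraries they were 192, 197 and 200.0 TPM, the order of Calb2 but not of Scgn. Of the 11 olfactory bulb genes tested, 6 rose under GRP-E1F2 and none fell, with a median log2 difference of 0.86. Over all genes 7.47% rose and 13.4% fell. Sp8, among the 6, averaged 1.98 TPM over all libraries. It passed the expression filter only through the GRP-E1F2 libraries, so its rise adds nothing to the count. Pituitary genes differed between the same libraries, from 4.34 to 883 TPM summed over 7 genes. Scgn is also known from endocrine cells, and the part of either tissue in its rise was not tested.

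Hippocalcin (Hpca, chromosome 4, 129111570 to 129125919) had the largest rise of all members with age. Its level was 811.36, 349.44 and 589.41 TPM in young, 1391.24, 1257.22 and 1116.30 in aged saline, and 1324.67, 1417.47 and 1389.70 in GRP-E1F2 libraries. All aged libraries were above all young ones, and those of the 2 aged groups overlapped. The mean was 2.15-fold higher in aged saline than in young brain (log2 difference 1.18, SE 0.247, limma adjusted p = 0.0173). GRP-E1F2 and aged saline did not differ past the threshold (0.14, adjusted p = 0.725 in limma). The age call was lost without young library 3, aged saline library 1 or aged saline library 2, and with 2 libraries per group (1.22, adjusted p = 0.384).

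Hpca spread widely within the young group, and so did striatal markers. The 12 striatal projection neuron genes summed to 1362, 426 and 904 TPM in young libraries 1 to 3, in the order of Hpca. In aged saline the sums were 1904, 1630 and 1405, and in GRP-E1F2 libraries 1078, 3096 and 2092, again in the order of Hpca within each group. None of these 12 genes passed the test with age or GRP-E1F2, with median log2 differences of 1.25 and 0.26. The 13 neocortical genes summed to 564 to 707 TPM in young, 830 to 958 in aged saline and 766 to 1310 in GRP-E1F2 libraries, with 5 rising with age. The hippocampal list of 12 genes, for the region that gave hippocalcin its name, summed to 79.9 to 85.5, 115 to 120 and 129 to 159 TPM, and 1 of the 9 genes tested rose with age. The part of these regions in the rise of Hpca was not tested.

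Hpcal1 (chromosome 12, 17690750 to 17791944), the close relative of hippocalcin, went the other way. Its level was 130.10, 162.52 and 143.74 TPM in young, 81.13, 92.22 and 102.74 in aged saline, and 22.64, 32.42 and 26.32 in GRP-E1F2 libraries. The 3 groups were fully separated. The log2 difference was -0.66 with age (SE 0.137, limma adjusted p = 0.0174) and -1.73 under GRP-E1F2 (adjusted p = 5.78e-05). With 2 libraries per group the fall under GRP-E1F2 held (adjusted p = 0.0129 in limma) and the age call did not (adjusted p = 0.384). Beside it, the summed level of the 9 astrocyte genes was 3229 to 4001 TPM in young, 2559 to 2866 in aged saline and 1543 to 1686 in GRP-E1F2 libraries. Of these, 6 fell with age and 6 under GRP-E1F2, and Slc1a2, a glutamate transporter, had log2 differences of 0.35 and 0.26 that did not pass. The parts of astrocytes and of Purkinje cells in its change were not tested.

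The ratio of Hpca to Hpcal1 summarises the divergence of the pair. It was 6.24, 2.15 and 4.10 in young, 17.1, 13.6 and 10.9 in aged saline, and 58.5, 43.7 and 52.8 in GRP-E1F2 libraries. The groups did not overlap, and the lowest GRP-E1F2 library was above the highest aged saline library. The EF-hand stretch printed above differs at 9 of its 90 bases between them, and no shared run reaches 50 bases.

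Hpcal4 (chromosome 4, 123183504 to 123194699), a sensor of the visinin-like branch, rose at both steps. Its level was 194.57, 128.06 and 158.97 TPM in young, 257.06, 240.10 and 219.57 in aged saline, and 405.32, 336.82 and 376.05 in GRP-E1F2 libraries. The 3 groups were fully separated, in the reverse order of Hpcal1. It rose by 0.59 with age (log2, SE 0.139, limma adjusted p = 0.0252) and by 0.64 under GRP-E1F2 (adjusted p = 0.0126). Both calls were lost with 2 libraries per group (adjusted p = 0.418 and 0.250 in limma).

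Ncald (chromosome 15, 37366175 to 37792519), neurocalcin delta, which binds clathrin and takes part in vesicle traffic, rose under GRP-E1F2 only narrowly. Its level was 183.22, 158.95 and 164.38 TPM in young, 226.84, 212.27 and 195.92 in aged saline, and 345.77, 231.02 and 295.03 in GRP-E1F2 libraries. The groups did not overlap, although GRP-E1F2 library 2 was just above the highest aged saline library. The age difference of 0.32 did not pass (adjusted p = 0.118 in limma). The GRP-E1F2 difference of 0.44 passed (limma adjusted p = 0.0446), but in 13 of 22 alternative settings it did not. Neocortical genes summed to 1310, 766 and 1022 TPM in GRP-E1F2 libraries 1 to 3, in the order of Ncald, and their part was not tested.

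Vsnl1 (chromosome 12, 11325257 to 11436578), the visinin-like sensor used as a fluid marker of neuronal injury, had similar means in all 3 groups. Its level was 643.11, 698.90 and 681.73 TPM in young, 716.06, 670.39 and 659.59 in aged saline, and 814.37, 558.49 and 680.29 in GRP-E1F2 libraries. The means of 675 ± 28.6, 682 ± 29.98 and 684 ± 128 TPM (SD, n = 3) differed by less than the spread within groups. Neither the age difference (0.02, SE 0.117, limma adjusted p = 0.944) nor the GRP-E1F2 difference (-0.01, adjusted p = 0.957) passed, and the sign of both differences flipped under some settings. GRP-E1F2 libraries 1 and 2 lay furthest apart, with the order of Ncald and of the neocortical sum. Among the young libraries the order of Vsnl1 was the reverse of both.

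Ncs1 (chromosome 2, 31245708 to 31295989), a sensor that regulates a phosphoinositide kinase and dopamine receptor desensitisation, did not pass either. Its level was 189.82, 168.95 and 181.28 TPM in young, 192.56, 173.84 and 143.11 in aged saline, and 230.40, 192.51 and 208.84 in GRP-E1F2 libraries. All GRP-E1F2 libraries were above all young ones, and aged saline library 3 was lowest. The age difference was -0.09 (log2, limma adjusted p = 0.589), the GRP-E1F2 difference 0.32 (adjusted p = 0.0720) and that between GRP-E1F2 and young 0.22 (adjusted p = 0.125).

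Set directly against young brain, the GRP-E1F2 libraries stood further away than the aged saline libraries for most members. This comparison shares its libraries with the others. Of the 10 members 8 passed, 4 higher and 4 lower, against 46.6% of all genes, with 17.2% higher and 29.4% lower, and the same 8 at an unadjusted p under 0.05, against 53.9%. Over all genes 2294 were higher and 3910 lower as deposited, 3015 and 3074 with median-of-ratios scaling, 3115 and 2978 with quantile normalisation, and 2029 and 3870 with scaling to pan-neuronal genes. The groups did not overlap for 9 members, against 61.4% of all genes. Scgn, 1 of these 9 and of the 8 that passed, entered the test only through the GRP-E1F2 libraries, so it adds nothing to either count. The members were also chosen with earlier results known, so these counts cannot show an excess. Pvalb was 9.11-fold lower (log2 difference -3.18, limma adjusted p = 2.74e-07), Calb1 differed by -1.92 (adjusted p = 1.89e-06) and Hpcal1 by -2.39 (adjusted p = 3.58e-06). Hpca was higher by 1.32 (limma adjusted p = 0.00236), Hpcal4 by 1.23 (adjusted p = 0.000161), Ncald by 0.76 (adjusted p = 0.00159) and Scgn by 2.77 (adjusted p = 0.000151). None of the 5 members that passed for age had a GRP-E1F2 mean closer to the young mean than the aged saline mean was. With 2 libraries per group, Hpca (adjusted p = 0.0527 in limma) and Ncald (adjusted p = 0.0612) no longer passed. In an exact two-sided permutation test of 3 against 3 values, which cannot go below p = 0.1, that smallest value was reached by 8 members for age, 6 for GRP-E1F2 and 9 for GRP-E1F2 against young.

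Some members followed each other across the 9 libraries, mostly through the group differences. Pearson correlations of log2(TPM + 1) were 0.988 between Pvalb and Calb1, 0.978 between Pvalb and Hpcal1, and 0.985 between Calb1 and Hpcal1. Over deviations from the group means the same pairs correlated at 0.601, -0.230 and 0.383. Hpcal4 and Ncald correlated at 0.949, and at 0.714 within groups. Vsnl1 followed neither Pvalb (0.0769) nor Calb1 (0.0107) over all 9 libraries. Calb2 and Ncald ran opposite (-0.989), and did so also within groups (-0.964). Hpcal1 and Hpcal4 ran opposite too (-0.955, within groups -0.846). These are descriptions over 9 libraries that share groups and, within each group, a library in between.

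For each member the closest genes were taken by the same correlation among 9742 genes averaging 5 TPM or more. Closest to Pvalb were Cnksr3, a scaffold protein of the Ras pathway (r = 1.00), and Slc41a3, a magnesium transporter (0.999). Cnksr3 was at 14.9, 19.5 and 17.3 TPM in young, 10.6, 10.19 and 10.04 in aged saline, and 1.75, 1.08 and 1.66 in GRP-E1F2 libraries, so it repeated the steps of Pvalb at a far lower level. Closest to Calb1 were Appl2 (0.998) and Afap1l2 (0.997), and to Calb2 Cacna2d2, a calcium channel subunit abundant in Purkinje cells (0.998), and Doc2b, a calcium sensor of vesicle release (0.994). Scgn ran with Gng4, a G protein subunit (0.975), and Trappc12 (0.975). Hpcal1 ran with Timp4, a metalloproteinase inhibitor (0.999), and Megf11 (0.999).

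For the other members, closest to Hpca were AI593442 (0.994) and Car11 (0.992), to Hpcal4 Plppr4 (0.998) and Lrrtm4 (0.998), both proteins of excitatory synapses, and to Ncald Olfm1 (0.995) and Adgrl1 (0.994). Vsnl1 was most like Arrdc2 (0.964) and Rassf5 (0.953), and Ncs1 most like Arl6ip1 (0.979) and Tspan13 (0.970). For each member 9742 genes were searched over 9 libraries that form 3 groups.

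Other genes of calcium handling moved in both directions, list by list. Their calls, like those of the marker lists, use all 9 libraries. With 2 libraries per group almost no gene of the whole table stayed called for age. Of 19 tested genes for other EF-hand proteins (22 listed), 3 rose and 3 fell with age, and 2 rose and 4 fell under GRP-E1F2, with medians of 0.22 and 0.03. Calmodulin itself, the general calcium sensor, was the most abundant. Calm2 was at 3875 ± 208, 4603 ± 845 and 4871 ± 106 TPM and Calm3 at 3313 ± 170, 3572 ± 218 and 3734 ± 228 (SD, n = 3), and neither passed in the age or the GRP-E1F2 comparison. Necab1 and Necab3, EF-hand proteins of neurons, rose at both steps. Necab1 was at 9.25 ± 1.41, 13.7 ± 1.15 and 18.7 ± 0.846 TPM (limma adjusted p = 0.0151 and 0.0210), and Necab3 at 30.9 ± 3.98, 38.8 ± 1.52 and 54.0 ± 1.35. S100b, an astrocytic EF-hand protein, fell at both steps, from 1492 ± 192 to 1084 ± 63.3 and 619 ± 89.1 TPM. Cabp7, a trafficking regulator, fell with age, and Cabp2, a channel regulator, was listed at 0 in all 3 GRP-E1F2 libraries after 1.56 ± 0.601 and 2.35 ± 0.437 TPM.

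Among the 8 calmodulin-binding proteins, 2 rose and 1 fell with age and 2 rose under GRP-E1F2. Neurogranin (Nrgn), which holds calmodulin in dendritic spines of forebrain neurons, rose with age from 8052 ± 4006 to 17906 ± 3517 TPM (log2 difference 1.27, limma adjusted p = 0.0412). It was at 21135 ± 4627 TPM in GRP-E1F2 libraries, which did not differ past the threshold from aged saline (adjusted p = 0.678 in limma). Within the young group it was at 11951, 3946 and 8260 TPM, the order of Hpca and of the striatal genes. Aged saline libraries shared that order too (21322, 18099 and 14297 TPM). In GRP-E1F2 libraries Nrgn (25841, 16591 and 20972 TPM) ran in the reverse order of both. Camk2n1, an inhibitor of calmodulin kinase II, rose with age while Camk2n2, its relative, fell. Marcks and Basp1, membrane proteins that bind calmodulin, rose under GRP-E1F2, and Pcp4, a calmodulin regulator shared by Purkinje cells and forebrain, stayed between 8699 and 12579 TPM.

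Of the 14 pumps and exchangers that remove calcium, 2 rose and 4 fell with age, and 2 rose and 3 fell under GRP-E1F2. Atp2a3, a calcium pump of the endoplasmic reticulum that is prominent in Purkinje cells, fell from 39.1 ± 7.08 to 18.9 ± 2.05 and then to 1.54 ± 0.204 TPM (limma adjusted p = 0.00419 and 2.03e-06). Atp2b3, a plasma membrane pump, fell at both steps. Atp2b4, another plasma membrane pump, rose under GRP-E1F2 from 15.3 ± 0.731 to 31.1 ± 4.98 TPM (0.97, adjusted p = 0.000799 in limma). Atp2a2 and Atp2b2, the most abundant of the list, passed in neither comparison.

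Of the 19 tested genes for calcium stores and release (20 listed), 2 fell and none rose with age, and 4 fell and 1 rose under GRP-E1F2. Itpr1, the inositol trisphosphate receptor that is abundant in Purkinje cells, fell from 162 ± 18.3 to 117 ± 11.2 and 58.7 ± 5.66 TPM (limma adjusted p = 0.0213 and 0.000343). Casq2, the store protein calsequestrin, fell from 9.67 ± 1.17 to 5.28 ± 0.440 and 1.18 ± 0.140 TPM. Calr, the store chaperone calreticulin, rose slightly under GRP-E1F2 (0.18, adjusted p = 0.0221 in limma). Of the 17 calcium-dependent enzymes, 2 rose and 3 fell with age, and 3 rose and 2 fell under GRP-E1F2. The calcineurin subunits Ppp3ca and Ppp3r1 rose with age, and Camk4, a calmodulin kinase abundant in granule cells, fell from 48.0 ± 1.55 to 37.0 ± 1.50 and 24.4 ± 0.796 TPM. Prkca, a protein kinase C, rose under GRP-E1F2 from 9.24 ± 0.351 to 19.9 ± 1.08 TPM.

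**Figure D5:**
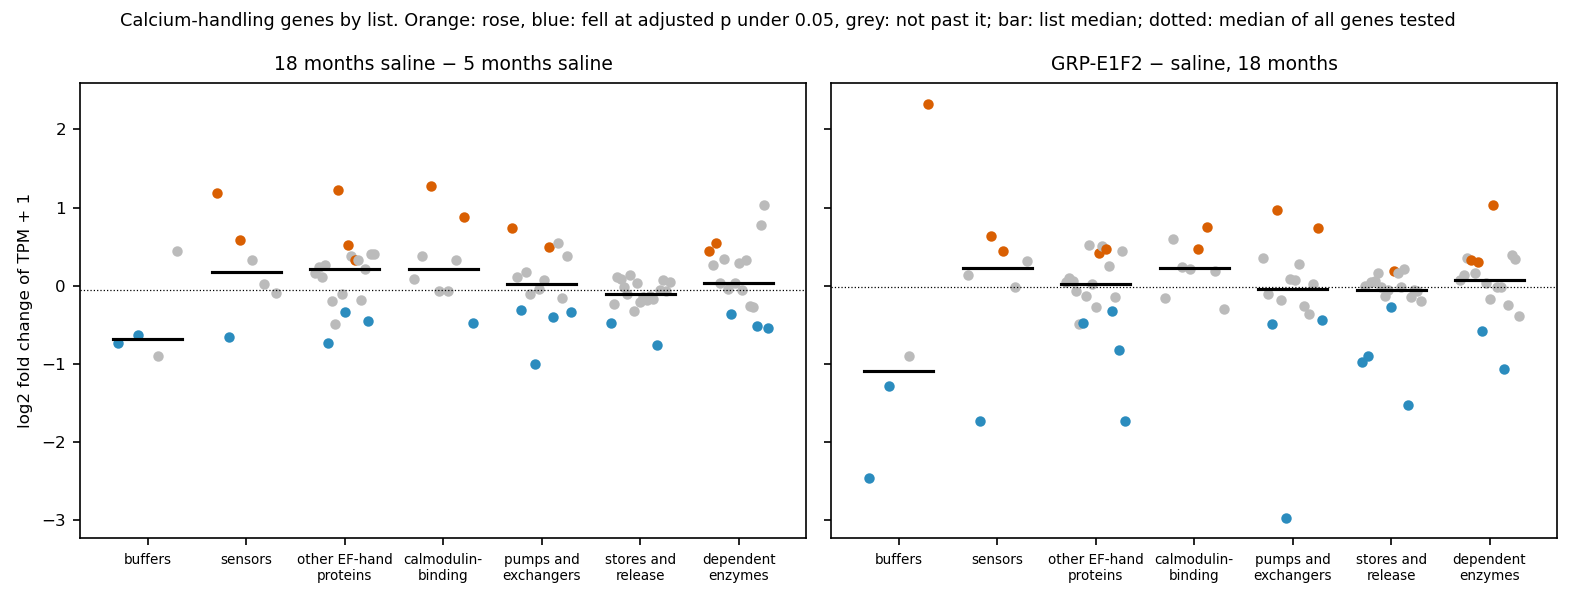
Log2 fold change of TPM + 1 for each gene of the 2 member groups and 5 other calcium-handling lists, for age (left) and GRP-E1F2 against saline (right), with a bar for each list's median and a dotted line for the median of all genes tested. The buffers have the lowest median in both panels, and the other lists have genes on both sides of the line. Scgn, the highest point on the right, passed the expression filter only through the GRP-E1F2 libraries.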

How the data were processed

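RNA was measured in 9 libraries, 3 per group. Library preparation used 0.4 ug of total RNA and a NEBNext Ultra II kit, per the labels' protocols, and the submitters' processing notes name HISAT2, Picard, SAMtools 0.1.18, GATK and the build mm10. The deposited table holds TPM per gene, computed by the authors. The quantification tool and its handling of strand and shared reads were not stated. Of 22192 genes, 3809 were at 0 throughout.

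The members and lists were chosen with earlier results of these data known. After a log2(TPM + 1) transformation, the 13301 genes averaging 1 TPM or more were tested with limma 3.58.1 (R 4.3.3, eBayes with trend) in 1 fit of all 9 libraries, without a replicate block. Tests were two-sided with Benjamini-Hochberg adjustment over all genes. The steps were tested on simulated data. Lists are described by counts and medians. Besides the members, the genes named were, per calcium list, the 2 with the highest mean TPM and up to 3 with the smallest adjusted p per comparison, per marker list 2 by mean TPM, and per member the 2 most correlated genes. Some genes that this rule took are left out. Grm6, Tmem54, Slc1a2, Kcnc1, Sag, Sp8, Car8, Ppp1r17 and Itpka are named beyond it, and the pairs plotted against marker sums were chosen after values were seen. Sequences came from the GRCm38 genome with GENCODE M21 and from RefSeq promoters. Alternatives covered pseudocounts, filters, scaling, weights, the block and left-out libraries.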

Additional observations from a re-analysis of the deposited data

How the results depend on the processing

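Over 22 alternative settings, the falls of Pvalb, Calb1 and Hpcal1 under GRP-E1F2 were called in every one, and the age falls of Pvalb and Calb1 in 21. With 2 libraries per group 3 genes were called for age, 248 for GRP-E1F2 and 1713 for GRP-E1F2 against young, and members called were 0, 3 and 6. With array weights, whose fit stopped before convergence, the counts were 11859, 12757 and 12229 genes, and members called were 9 for age and 10 for GRP-E1F2. Leaving out 1 library gave 371 to 2635 genes for age (371 without young library 3, 379 without aged saline library 2, 635 without young library 2, 1330 without aged saline library 1 and 1172 without GRP-E1F2 library 3, against 2217). It gave 1345 to 3060 for GRP-E1F2 (1345 without aged saline library 2 and 1376 without GRP-E1F2 library 3, against 2771) and 4737 to 6635 for GRP-E1F2 against young. Members called then ranged from 2 to 7, from 5 to 7 and from 8 to 9. Of the age calls, Hpcal1 and Hpcal4 were also lost without young library 2. Fitting only the 2 groups compared called 8 members for age, while 2140 genes were called over the whole table.

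Differences that changed sign were all near 0 and none was called in the reported fit. For Vsnl1 under GRP-E1F2 the value was 0.0205 with median-of-ratios scaling and 0.0210 with array weights, where it was called, and leaving out 1 library gave -0.145 to 0.127. For Vsnl1 and age it was -0.0231 with array weights and -0.0198 to 0.0417 with 1 library left out. For Vsnl1 in GRP-E1F2 against young it was -0.0260 with scaling to pan-neuronal genes, -0.00203 with array weights and -0.129 to 0.143 with 1 library left out. For Ncs1 and age, leaving out 1 library gave -0.188 to 0.0249. Ncs1 was called with median-of-ratios scaling under GRP-E1F2 (limma adjusted p = 0.0457) and against young (0.0426), and Ncald was called for age with pan-neuronal scaling (0.0461). The causes were not tested.

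Labels give the groups the same library numbers. Same-numbered libraries correlated at -0.0549 to 0.126 in their deviations from the group means, so the numbers were not taken to pair the libraries. With a replicate block 2055, 2589 and 5944 genes and 6, 8 and 8 members were called. Scgn was not tested with a filter of 5 TPM. Depth is unknown, so what it limits cannot be stated.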
